A study of Mus musculus with 9 samples.

Results

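The 45 genes described here are the ligands, receptors, antagonists and feedback targets of the TGF-beta superfamily: the Nodal, Lefty, GDF, BMP, activin and TGF-beta ligands with the co-receptor Tdgf1, their type I and type II receptors, the inhibitory Smads, the Id genes and the secreted or membrane antagonists. They were listed by gene symbol for their roles in the pathway. The rule itself uses no measured value, but the list was chosen with earlier results of these data known. Each of the 45 symbols matched 1 gene of the 48440 in the count tables, and 35 of the 45 had enough counts to be tested. RNA was measured in J1 mouse embryonic stem cells, grown on gelatin in medium with serum, LIF and the 2i inhibitors PD0325901 (of MEK) and CHIR99021 (of GSK3). All cells carried the Suz12-AID genotype, in which Suz12, a core subunit of the Polycomb complex PRC2, has an auxin-inducible degron. The 3 groups of 3 libraries were Mock, Auxin (50 µM auxin for 96 h) and Re-introduction (auxin, then 4.5 h of washout). The series describes the 3 libraries of each group as biological replicates. The labels do not say what the Mock cells received or how many clones of the line were used.

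Ligands of this superfamily bind pairs of type I and type II serine/threonine kinase receptors. Nodal, activin and TGF-beta receptors phosphorylate Smad2 and Smad3, BMP receptors phosphorylate Smad1, Smad5 and Smad9, and both sets of Smads enter the nucleus with Smad4. In mouse embryonic stem cells BMP4 acts through the Id genes, Nodal signals through its co-receptor Tdgf1 (Cripto) to activate its own inhibitors Lefty1 and Lefty2, and many developmental genes with CpG-rich promoters are PRC2 targets.

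The promoters of 5 members that differ in CpG content and in how their RNA moved are shown, because PRC2 is known for binding CpG-rich promoters. Each line gives the 250 bases before the start site in RefSeq's GRCm38.p6, read 5′ to 3′ on the gene's strand, with CpG dinucleotides in capitals. The windows are chr10:61417722-61417971 (plus strand) for Nodal, chr14:46390670-46390919 (minus strand) for Bmp4, chr1:119422249-119422498 (minus strand) for Inhbb, chr9:64022060-64022309 (minus strand) for Smad6 and chr2:48813859-48814108 (plus strand) for Acvr2a.
Nodal: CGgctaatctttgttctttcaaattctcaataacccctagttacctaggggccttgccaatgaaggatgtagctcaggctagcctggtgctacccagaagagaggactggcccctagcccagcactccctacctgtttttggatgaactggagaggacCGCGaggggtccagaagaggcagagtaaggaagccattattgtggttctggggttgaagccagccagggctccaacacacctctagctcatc
Bmp4: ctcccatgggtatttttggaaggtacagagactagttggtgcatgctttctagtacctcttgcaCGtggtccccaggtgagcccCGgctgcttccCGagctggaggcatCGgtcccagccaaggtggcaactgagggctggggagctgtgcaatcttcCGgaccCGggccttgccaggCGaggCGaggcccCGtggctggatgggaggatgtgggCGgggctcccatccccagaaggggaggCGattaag
Inhbb: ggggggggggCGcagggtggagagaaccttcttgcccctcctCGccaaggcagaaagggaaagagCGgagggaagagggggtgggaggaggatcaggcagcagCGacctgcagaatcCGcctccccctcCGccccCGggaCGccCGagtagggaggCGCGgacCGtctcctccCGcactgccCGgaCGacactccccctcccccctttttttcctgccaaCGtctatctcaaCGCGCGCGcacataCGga
Smad6: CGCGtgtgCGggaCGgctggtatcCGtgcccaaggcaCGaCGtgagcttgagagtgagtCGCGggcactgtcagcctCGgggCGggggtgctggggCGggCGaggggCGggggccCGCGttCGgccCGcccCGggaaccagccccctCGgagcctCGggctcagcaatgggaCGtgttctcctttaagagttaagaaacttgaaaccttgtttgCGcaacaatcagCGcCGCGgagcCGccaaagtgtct
Acvr2a: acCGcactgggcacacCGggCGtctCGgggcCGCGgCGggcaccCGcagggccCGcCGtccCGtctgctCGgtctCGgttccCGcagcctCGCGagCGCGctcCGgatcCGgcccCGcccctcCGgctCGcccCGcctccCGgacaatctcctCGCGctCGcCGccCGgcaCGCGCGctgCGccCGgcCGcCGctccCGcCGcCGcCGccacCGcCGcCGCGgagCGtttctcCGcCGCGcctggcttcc
These windows hold 3 CpG for Nodal, 11 for Bmp4, 21 for Inhbb, 27 for Smad6 and 49 for Acvr2a. RefSeq promoters of 250 bases before to 50 after the start were found for 32 of the 45 members, as 36 entries, and no entry was found for 13, among them Lefty1, Lefty2, Id1 and Smad7. The 36 entries held 3 to 54 CpG with a median of 22.5, against a median of 7 over all 32851 promoters in the table. The most CpG-rich entries belonged to receptors: Acvr2a had 54, Acvr1 and Acvr1b 51 each and Bmpr1a 48. The motif GGCGCC, which is its own reverse complement, was in 10 of the 36 entries (27.8%) and in 11.9% of all promoters. The motif contains a CpG, and these shares were not matched for CpG content. The Smad-binding motif CAGAC, searched on both strands, was in 20 entries (55.6%) and in 49.6% of all promoters. These matches describe the windows and are not evidence of binding.

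Library totals ran from 44341283 to 113931419 counts. Counts were of mates and not of fragments, so the number of independent molecules is lower. Suz12 RNA, which a degron acting on the protein need not change, was at 125, 136 and 138 CPM (the count divided by the library's scaled total) in the 3 Mock libraries, 150, 122 and 152 in Auxin and 166, 173 and 164 in Re-introduction; values are in the order of replicates 1, 2 and 3 here and below. The 8 markers of pluripotent cells, all detected, summed to 5278–5361 CPM in Mock, 6870–7323 in Auxin and 5233–5343 in Re-introduction, so the cells expressed the genes of their label in all groups. Pou5f1 was 1.45-fold lower in Auxin than in Mock, while the other markers of this list were called higher. It was 1.46-fold lower in Re-introduction than in Mock, where the others had calls in both directions. The 6 summed markers of primitive endoderm, which were all called higher in Auxin than in Mock, were at 5.60–7.27, 21.4–22.3 and 13.9–15.6 CPM in Mock, Auxin and Re-introduction. In Re-introduction against Mock, Gata4, Sox7 and Dab2 were higher, Gata6 was 2.09-fold lower, and Sox17 and Pdgfra were not called. The mesendoderm, fibroblast and trophoblast lists mixed directions as well. The 5 mesendoderm markers summed to 47.1–48.7, 26.4–29.1 and 68.4–71.1 CPM, mostly Eomes (means of 35.4, 25.6 and 66.9), while T and Mixl1 were 7.14-fold and 4.11-fold lower in Re-introduction than in Mock. The 5 fibroblast markers summed to 17.8–19.96, 39.1–46.4 and 37.4–38.8 CPM, nearly all Thy1 (means of 17.9, 41.2 and 37.5), while Col1a1 was 2.76-fold lower in Auxin than in Mock and Twist2 was at 0 in every library. The 6 trophoblast markers summed to 1.67–2.20, 0.774–1.43 and 1.37–1.92 CPM: in Auxin Cdx2 was 19.9-fold lower than in Mock, Krt7, Hand1 and Gata3 were 3.07-fold, 4.71-fold and 4.61-fold higher, and Tpbpa was at 0 in every library. The 4 neural markers summed to 95.8–105, 68.3–84.8 and 64.5–66.0 CPM, nearly all Tubb3, with Neurog2 at 0 in every library. In Auxin against Mock, Pax6 and Tubb3 were 1.71-fold and 1.35-fold lower and Sox1 was not called. In Re-introduction, Tubb3 alone of this list was called against Mock (1.56-fold lower), and Sox1 was 1.52-fold higher than in Auxin. In RNA from whole cultures, fewer cells of a type and less RNA per cell cannot be told apart, and the part that other cell types play in the results below was not tested. Auxin replicate 2 stood apart: its chi-square per degree of freedom was 63.1 and 79.0 against the other 2 Auxin libraries, which differed from each other by 8.27. Mock replicate 1 was at 24.9 and 19.3 against Mock replicates 2 and 3, which differed from each other by 4.47. Counts also depended on transcript length differently in the groups. The slope of log2 CPM per doubling of exon length over 12311 genes was −0.18 to −0.13 in Mock, 0.12, 0.03 and 0.12 in Auxin replicates 1, 2 and 3 and 0.06 in each Re-introduction library, so values with this trend removed are given beside the members it moved.

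The first comparison asked what changed under auxin, the treatment that targets Suz12 protein for degradation; the protein was not measured here. In Auxin against Mock, 21 of the 35 tested members rose and 10 fell at an adjusted p under 0.05 (edgeR's quasi-likelihood test with Benjamini-Hochberg adjustment over all 20838 tested genes). Over all genes 73.2% passed this test, 38.4% higher and 34.8% lower, so most genes moved and the members' count is read against that. The members' median log2 fold change was 0.62, against 0.05 over all genes. At least a 2-fold difference was called for 11 members higher and 4 lower, where 19.8% and 12% of all genes were. Of the 35 members, 32 had no overlap between the 3 Mock and the 3 Auxin libraries, as had 74.3% of all genes.

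The second comparison asked what changed in the 4.5 h after auxin was removed. In Re-introduction against Auxin, 9 members rose, 12 fell and 14 did not pass the test, where 50.9% of all genes passed, 25.5% higher and 25.5% lower. The members' median was −0.10, against 0.00 over all genes. With total counts in place of TMM scaling the split was 6 higher and 15 lower, a scaling that moved the median of all genes from 0.00 to −0.08. At least a 2-fold difference was called for 2 members higher (4.16% of all genes) and 3 lower (6.82%). The groups did not overlap for 24 members, as for 58.2% of all genes.

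The third comparison asked what still differed from Mock after washout. In Re-introduction against Mock, 20 members were higher, 9 were lower and 6 did not pass, where 68.1% of all genes passed, 34.7% higher and 33.4% lower. The members' median was 0.51, against 0.03 over all genes. At least a 2-fold difference was called for 11 members higher and 4 lower, where 15% and 7.43% of all genes were. The groups did not overlap for 32 members, as for 75.2% of all genes. The 3 comparisons share libraries, so each member's values are given side by side and not as independent evidence.

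**Figure D1:**
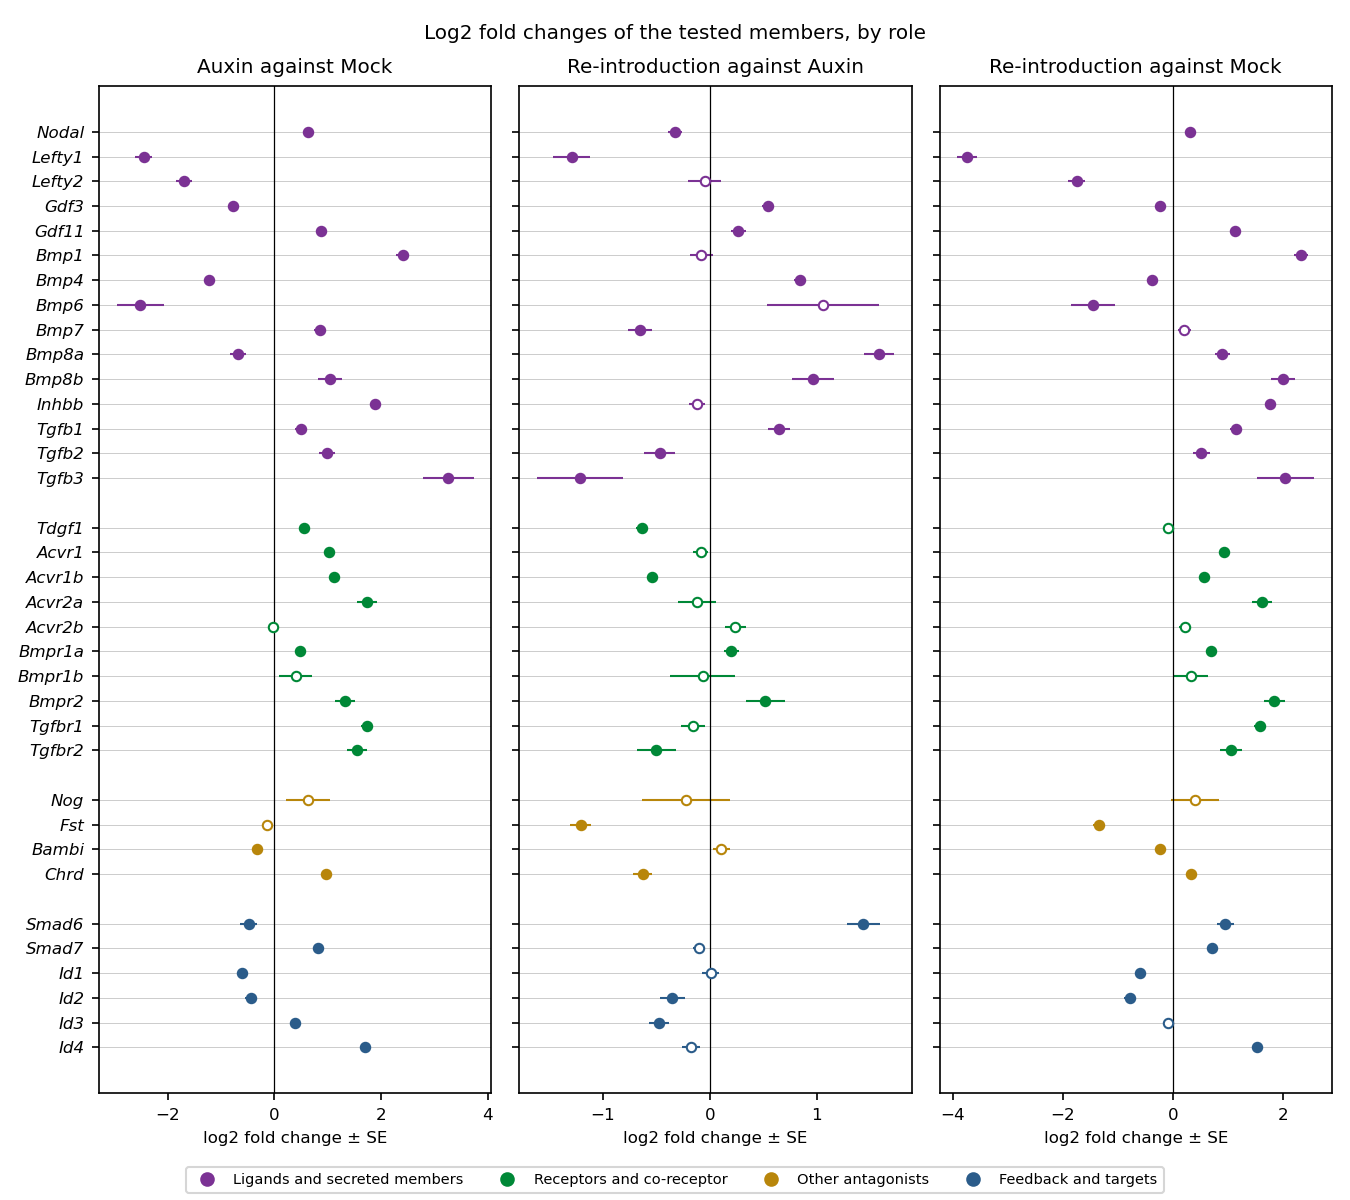
Log2 fold changes (x axis, ± SE) of the 35 tested members (y axis) in the 3 comparisons, grouped and coloured by role, with filled points for an adjusted p under 0.05 and open points for the rest. Of the 10 receptor and co-receptor genes 8 were higher and none lower in Auxin against Mock, while Lefty1, Bmp6, Lefty2 and Bmp4 were lower by more than 1 on this scale. The 3 panels have different x axes.

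Of the 23 ligands and secreted members, Lefty1 and Lefty2 included, 15 were tested: 9 rose and 6 fell in Auxin (median log2 fold change 0.64), 6 rose and 5 fell after washout (−0.05), and 9 were higher and 5 lower in Re-introduction than in Mock (0.51). All 15 were called in Auxin against Mock, where 73.2% of all genes were. After washout 73.3% were called, and 93.3% in Re-introduction against Mock, where 50.9% and 68.1% of all genes were. The ligand Nodal rose in Auxin while its targets and inhibitors Lefty1 and Lefty2 fell, and after washout Lefty1 fell further. Nodal (chr10:61417972-61425338, plus strand, mm10), whose upstream bases with 3 CpG are shown above, was at 74.0, 68.2 and 67.9 CPM in the 3 Mock libraries, 106, 118 and 102 in Auxin and 85.9, 86.4 and 88.1 in Re-introduction. The groups did not overlap, and Re-introduction lay between the other two. The log2 fold change was 0.64 ± 0.063 (SE; adjusted p = 3.13e-06) for Auxin against Mock, −0.33 (adjusted p = 1.26e-03) after washout and 0.31 (adjusted p = 1.12e-03) for Re-introduction against Mock, which became 0.51 with the length trend removed and 0.67 with length and GC trends removed. Tdgf1 (chr9:110939603-110946158), the co-receptor of Nodal, was at 577, 546 and 540.4 CPM in Mock, with 805, 836 and 790.4 in Auxin, then 539, 525 and 498 in Re-introduction. It was high in all 3 Auxin libraries and rose by 0.55 ± 0.054 on the log2 scale (adjusted p = 2.97e-06), then fell by 0.64 (adjusted p = 3.03e-06). Re-introduction against Mock was −0.09 (adjusted p = 0.161), which passed the test at −0.11 when Auxin replicate 2 was left out of the fit.

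Lefty1 (chr1:180935022-180938400), a secreted inhibitor of Nodal, was at 45.9, 36.1 and 32.8 CPM in the libraries of Mock, 6.52, 8.34 and 6.09 in those of Auxin and 3.36, 2.32 and 2.77 in those of Re-introduction. The 3 groups were separate, with every Re-introduction library below every Auxin library. It was 5.47-fold lower in Auxin than in Mock (log2 fold change −2.45 ± 0.16, adjusted p = 9.07e-08), 2.45-fold lower after washout than in Auxin (−1.29 ± 0.17, adjusted p = 9.76e-05) and 13.4-fold lower in Re-introduction than in Mock (−3.74 ± 0.17, adjusted p = 2.39e-08). Lefty2 (chr1:180893108-180899103), its neighbour 35918 bases away, was at 151, 131 and 117 CPM in the Mock libraries, against 37.6, 47.7 and 37.7 under Auxin and 49.2, 32.7 and 36.6 at Re-introduction. Auxin and Re-introduction overlapped and both lay below all Mock libraries. The log2 fold change was −1.70 ± 0.15 (adjusted p = 1.38e-06) for Auxin against Mock, −0.05 ± 0.15 (adjusted p = 0.808) after washout and −1.75 ± 0.15 (adjusted p = 2.09e-06) for Re-introduction against Mock. The genes are near copies: of the 75-base windows of the longest Lefty1 transcript, 173 of 1546 (11.2%) occur in a Lefty2 transcript, so a share of the reads could have been assigned to either. Their summed mean was 171 CPM in Mock, 47.9 in Auxin and 42.3 in Re-introduction.

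Gdf3, a ligand that also uses Tdgf1, was at 159.6, 152 and 155 CPM in Mock, with 86.6, 99.6 and 87.4 in Auxin, then 132, 133 and 133 in Re-introduction. It fell in Auxin by 0.77 ± 0.060 on the log2 scale (adjusted p = 3.98e-07) and rose by 0.54 after washout (adjusted p = 2.19e-05), with no overlap between groups. Re-introduction was lower than Mock at −0.23 (adjusted p = 5.28e-03), a call that was lost with total counts (−0.10), with the length trend removed (−0.06) and with length and GC trends removed (−0.02). Gdf11, a ligand of activin type II receptors, was at 5.31, 5.35 and 5.81 CPM in the libraries of Mock, 10.5, 10.1 and 9.41 in those of Auxin and 12.3, 12.3 and 11.6 in those of Re-introduction. The 3 groups were separate. It rose by 0.87 ± 0.073 on the log2 scale in Auxin (adjusted p = 7.96e-07) and by a further 0.26 after washout (adjusted p = 9.55e-03), a call that was lost with total counts (0.18), and was 1.13 above Mock in Re-introduction (adjusted p = 2.32e-07).

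**Figure D2:**
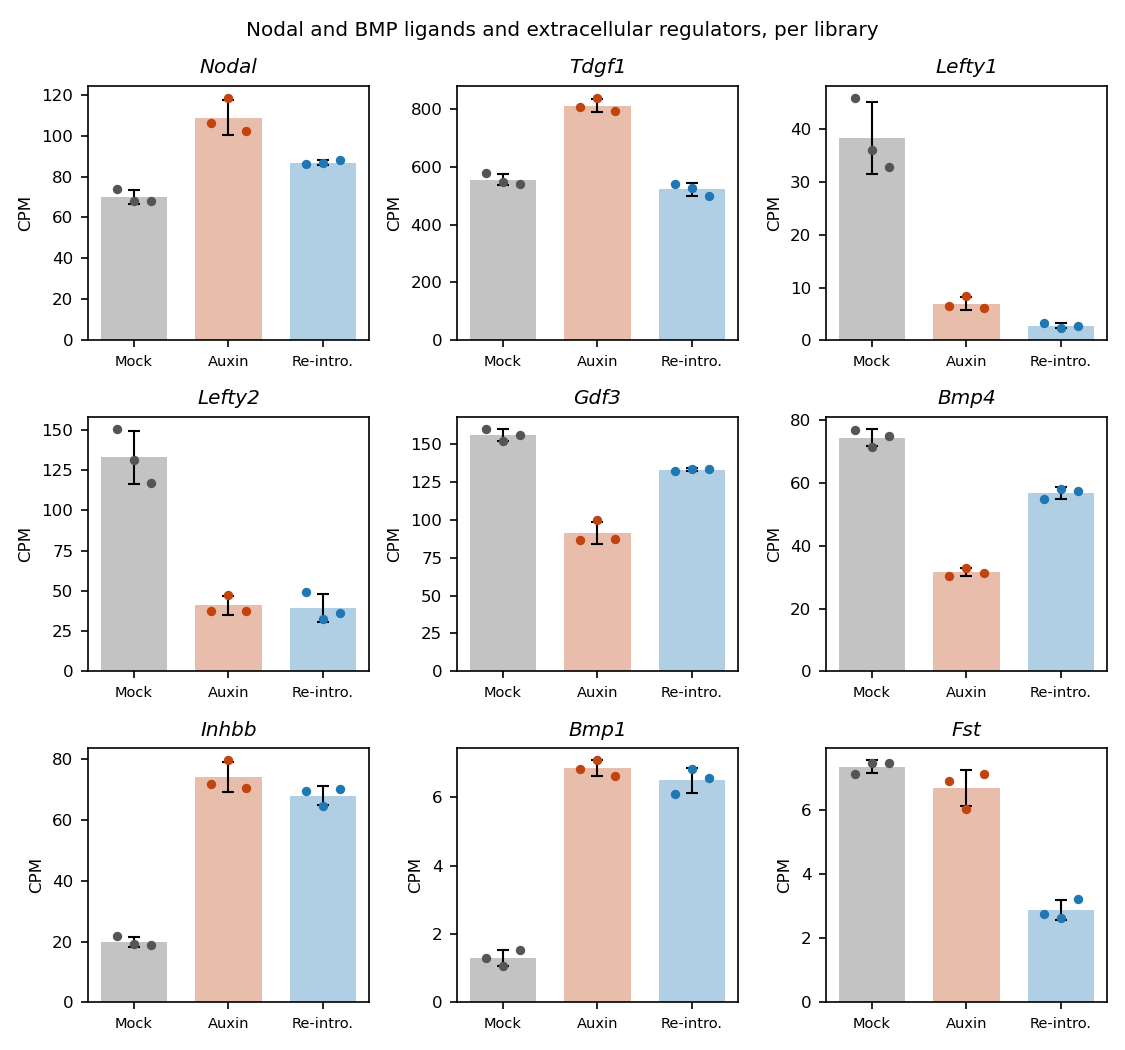
CPM (y axis, linear, from 0) of 9 ligands and extracellular regulators in the 3 groups (x axis); points are libraries, bars are means and error bars are SD (n = 3). Lefty1 falls from 32.8–45.9 in Mock to 6.09–8.34 in Auxin and 2.32–3.36 in Re-introduction, and Bmp4 in Re-introduction lies between Auxin and Mock.

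Of the genes named for BMPs, Bmp4 fell in Auxin and rose after washout, while Bmp8b and the protease gene Bmp1 were higher than Mock in both later groups. Bmp4 (chr14:46383520-46390669, minus strand), a ligand with a known role in embryonic stem cell self-renewal, was at 76.8, 71.4 and 74.8 CPM in the Mock libraries, against 30.3, 33.0 and 31.4 under Auxin and 54.7, 58.1 and 57.5 at Re-introduction. Whether it has that role in this medium with the 2i inhibitors was not tested. All Auxin libraries lay below all others, and Re-introduction lay below Mock. It was 2.35-fold lower in Auxin (log2 fold change −1.24 ± 0.055, adjusted p = 5.48e-09) and 1.80-fold higher after washout than in Auxin (0.85 ± 0.055, adjusted p = 4.29e-07). Re-introduction against Mock was −0.39 (adjusted p = 7.38e-05), which was −0.26 with total counts, −0.20 with the length trend removed and −0.09, no longer called, with length and GC trends removed. Part of its exon sequence is shared with the opposite-strand gene Gm15217, and the counts did not use strand.

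Bmp1 encodes a protease that cleaves procollagen and the antagonist chordin and is no ligand of these receptors. It was at 1.29, 1.06 and 1.54 CPM in Mock, with 6.83, 7.08 and 6.63 in Auxin, then 6.09, 6.82 and 6.57 in Re-introduction. Mock was below all other libraries, and the other two groups overlapped. It was 5.30-fold higher in Auxin than in Mock (log2 fold change 2.41 ± 0.12, adjusted p = 1.33e-08), with −0.08 after washout (adjusted p = 0.569). Bmp7, a ligand of BMP type I receptors, averaged 4.45 ± 0.34 CPM (SD, n = 3) in Mock, 8.07 ± 1.2 in Auxin and 5.13 ± 0.18 in Re-introduction. It rose by 0.86 on the log2 scale in Auxin (adjusted p = 3.04e-05) and fell by 0.65 after washout (adjusted p = 5.73e-04). Bmp7 in Re-introduction against Mock was 0.21 (adjusted p = 0.132), which passed the test with total counts (0.34) and with length and GC trends removed (0.37).

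Bmp8a and Bmp8b are neighbouring near copies known from germ cells and primordial germ cell induction. Bmp8a was at 1.07, 1.06 and 1.09 CPM in the libraries of Mock, 0.598, 0.695 and 0.716 in those of Auxin and 1.86, 2.14 and 2.02 in those of Re-introduction. It was lowest in Auxin and highest in Re-introduction, with no overlap, and changed by −0.68 in Auxin against Mock (adjusted p = 1.30e-03; −0.40 with length and GC trends removed), 1.58 ± 0.14 after washout (adjusted p = 4.73e-06) and 0.90 in Re-introduction against Mock (adjusted p = 1.20e-04). Bmp8b was at 0.456, 0.773 and 0.434 CPM in the Mock libraries, against 1.24, 1.13 and 1.04 under Auxin and 2.02, 2.49 and 2.18 at Re-introduction. It was highest in Re-introduction and lowest in Mock, and rose by 1.04 in Auxin (adjusted p = 1.21e-03) and by 0.96 after washout (adjusted p = 1.92e-03), to a log2 fold change of 2.00 ± 0.21 above Mock (adjusted p = 8.85e-06). Of the 75-base windows of the longest transcripts, 6.82% of Bmp8a's occur in Bmp8b and 5.55% of Bmp8b's in Bmp8a, and Bmp8b also shares exon sequence with Gm17244 and Ppie on the opposite strand. Bmp6 was at 67, 10 and 19 counts summed over the Mock, Auxin and Re-introduction libraries. It was lower than Mock in Auxin (−2.51 ± 0.44, adjusted p = 3.23e-04) and in Re-introduction (−1.45 ± 0.40, adjusted p = 7.13e-03), and the difference after washout was 1.06 (adjusted p = 0.116).

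The activin and TGF-beta ligands that were tested rose in Auxin and stayed above Mock after washout. Inhbb (chr1:119415465-119422248, minus strand), the beta B subunit shared by activin B and inhibin B, was at 21.9, 19.3 and 18.8 CPM in Mock, with 72.0, 79.8 and 70.5 in Auxin, then 69.6, 64.6 and 70.3 in Re-introduction. Mock was far below the other two groups. It was 3.71-fold higher in Auxin (log2 fold change 1.89 ± 0.075, adjusted p = 2.49e-09) and 3.41-fold higher in Re-introduction (adjusted p = 1.35e-08) than in Mock, with −0.12 ± 0.072 after washout (adjusted p = 0.188). Tgfb1 was at 8.16, 6.64 and 6.99 CPM in the libraries of Mock, 10.01, 11.5 and 9.19 in those of Auxin and 15.9, 17.0 and 15.3 in those of Re-introduction. The 3 groups were separate and highest in Re-introduction. It rose by 0.49 ± 0.10 in Auxin (adjusted p = 1.01e-03) and by 0.65 ± 0.100 after washout (adjusted p = 2.65e-04), to 1.14 above Mock (adjusted p = 2.29e-06).

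Tgfb2 averaged 1.88 ± 0.30 CPM (SD, n = 3) in Mock, 3.70 ± 0.57 in Auxin and 2.67 ± 0.056 in Re-introduction. It rose by 0.98 in Auxin (adjusted p = 9.22e-05) and fell by 0.47 after washout (adjusted p = 0.0192), a call lost without Auxin replicate 1 (−0.43), Auxin replicate 3 (−0.39) or Re-introduction replicate 2 (−0.45). It was 0.51 above Mock in Re-introduction (adjusted p = 0.0103), a call lost without Mock replicate 1 (0.36), with the length trend removed (0.32) and with length and GC trends removed (0.33). Tgfb3 rested on 19 counts over the Mock libraries, 1 of which had none, 161 over Auxin and 62 over Re-introduction. It was higher than Mock in Auxin (3.26 ± 0.47, adjusted p = 7.62e-05) and in Re-introduction (2.04, adjusted p = 4.83e-03). The fall after washout (−1.22, adjusted p = 0.0258) was lost without Auxin replicate 1 (−1.19), Re-introduction replicate 1 (−1.22) or Re-introduction replicate 3 (−1.13). Tgfb2 and Tgfb3 share exon sequence with opposite-strand genes.

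The receptors moved mostly one way in Auxin: of the 10 genes for type I receptors, type II receptors and the co-receptor Tdgf1, 8 rose, 6 of them at least 2-fold, and none fell, with a median log2 fold change of 1.06. Of all genes 38.4% were called higher and 19.8% higher by at least 2-fold in that comparison. In Re-introduction against Mock 7 were higher and none lower (median 0.81), where 34.7% of all genes were higher. After washout 2 rose and 3 fell (median −0.10), a share of 50.0% called against 50.9% of all genes. Receptor transcripts were long, with a median exon length of 5257.5 bases against 3757 over all members. With length and GC trends removed the receptors' median in Auxin against Mock was 0.75, again with 8 called higher, but Bmpr1a was no longer called (0.08) and Acvr2b was (0.30).

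Acvr1b, the type I receptor of activin and Nodal, was at 43.6, 44.7 and 44.8 CPM in the Mock libraries, against 94.0, 98.9 and 94.6 under Auxin and 62.8, 66.0 and 68.8 at Re-introduction. The 3 groups were separate, and Re-introduction lay between the other two. It rose by 1.11 ± 0.052 in Auxin (adjusted p = 7.28e-09) and fell by 0.54 ± 0.051 after washout (adjusted p = 6.95e-06), to 0.57 ± 0.051 above Mock (adjusted p = 2.55e-06). Tgfbr1, the type I receptor of TGF-beta, was at 35.5, 41.2 and 41.0 CPM in Mock, with 145, 105 and 143 in Auxin, then 113, 119.9 and 118 in Re-introduction. Auxin replicate 2 was the lowest of its group and lay below the Re-introduction libraries, and all Mock libraries were below the rest. The difference was 1.74 ± 0.11 in Auxin (3.34-fold, adjusted p = 1.03e-07) and 1.58 ± 0.11 in Re-introduction against Mock (2.99-fold, adjusted p = 4.93e-07). Over all alternatives these values ran from 1.31 to 1.95 and from 1.06 to 1.71. Tgfbr1 after washout was −0.16 (adjusted p = 0.254), which passed the test at −0.31 without Auxin replicate 2 and at −0.25 with length and GC trends removed.

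Acvr1, a type I receptor of BMPs, was at 6.13, 6.87 and 6.71 CPM in the libraries of Mock, 13.3, 13.9 and 12.7 in those of Auxin and 12.2, 13.1 and 12.2 in those of Re-introduction. Both later groups lay above Mock and overlapped each other. It rose by 1.02 ± 0.071 in Auxin (adjusted p = 1.75e-07), with −0.08 after washout (adjusted p = 0.341). Bmpr1a, the type I receptor through which BMP4 signals, was at 61.0, 66.2 and 64.0 CPM in the Mock libraries, against 94.9, 78.9 and 93.1 under Auxin and 98.8, 104 and 104 at Re-introduction. Auxin replicate 2 was again the lowest of its group. The rise of 0.48 ± 0.071 in Auxin (adjusted p = 8.70e-05) was 0.19 with the length trend removed and 0.08, no longer called, with length and GC trends removed. The difference after washout was 0.20 (adjusted p = 0.0362), and the call was lost in 12 alternatives: without Auxin replicate 2 (0.10), without any 1 of the Mock or Re-introduction libraries (0.18 to 0.21) and in 5 others. Re-introduction was above Mock by 0.68 (adjusted p = 8.43e-06; 0.44 with the length trend and 0.19 with length and GC trends removed). Bmpr1b averaged 0.388 ± 0.088, 0.511 ± 0.16 and 0.496 ± 0.12 CPM (SD, n = 3) in Mock, Auxin and Re-introduction and passed no test.

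The type II receptors Acvr2a and Bmpr2 rose, while Acvr2b did not pass. Acvr2a, a type II receptor of activins whose CpG-dense promoter is shown above, was at 7.95, 9.46 and 9.25 CPM in Mock, with 31.4, 19.9 and 37.4 in Auxin, then 27.8, 27.4 and 26.4 in Re-introduction. Auxin replicate 2 was the lowest of the Auxin libraries and still above all Mock libraries. The difference was 1.74 ± 0.18 in Auxin against Mock (3.33-fold, adjusted p = 4.97e-06; 1.95 without Auxin replicate 2) and 1.62 ± 0.18 in Re-introduction against Mock (adjusted p = 1.42e-05). Over all alternatives these values ran from 1.35 to 1.95 and from 1.10 to 1.75. Acvr2a after washout was −0.12 (adjusted p = 0.597), which passed at −0.35 without Auxin replicate 2 and at −0.25 with length and GC trends removed. The gene shares exon sequence with Orc4 on the opposite strand.

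Bmpr2, the type II receptor of BMPs with 17983 bases of exon sequence, was at 16.9, 19.0 and 18.8 CPM in the libraries of Mock, 47.5, 30.0 and 59.0 in those of Auxin and 65.8, 68.3 and 61.2 in those of Re-introduction. The Auxin libraries differed most among themselves, with replicate 2 the lowest. The rise of 1.32 ± 0.19 in Auxin (adjusted p = 5.73e-05) was 0.55 with the length trend removed and 0.46 with length and GC trends removed, and called in both. Re-introduction was 1.84 ± 0.19 above Mock (3.58-fold, adjusted p = 6.76e-06), which was 1.08 and 0.87 with those trends removed. The rise of 0.52 ± 0.18 after washout (adjusted p = 0.0331) was 0.28 without Auxin replicate 2, and its call was lost without Auxin replicate 1 (0.54) or any 1 of the Mock or Re-introduction libraries (0.49 to 0.55) and in 4 other alternatives.

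Tgfbr2, the type II receptor of TGF-beta, was at 0.621, 0.676 and 0.727 CPM in the Mock libraries, against 2.16, 1.90 and 1.84 under Auxin and 1.04, 1.78 and 1.42 at Re-introduction. All Mock libraries lay below the rest. It rose by 1.55 ± 0.19 in Auxin (adjusted p = 2.10e-05) and was 1.05 ± 0.20 above Mock in Re-introduction (adjusted p = 7.22e-04). The fall of 0.50 after washout (adjusted p = 0.0401) was lost without Re-introduction replicate 1 (−0.32), Re-introduction replicate 3 (−0.53), Auxin replicate 1 (−0.44), Auxin replicate 3 (−0.55) or Mock replicate 2 (−0.51) and in 3 other alternatives. Acvr2b averaged 6.89 ± 0.11 CPM (SD, n = 3) in Mock, 6.76 ± 0.86 in Auxin and 7.97 ± 0.59 in Re-introduction. Its differences of −0.03 (adjusted p = 0.823), 0.24 (adjusted p = 0.0674) and 0.21 (adjusted p = 0.0784) passed no test. The second passed at 0.31 without Auxin replicate 1. The third passed in 5 alternatives, from 0.19 without Auxin replicate 2 to 0.60 with length and GC trends removed.

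**Figure D3:**
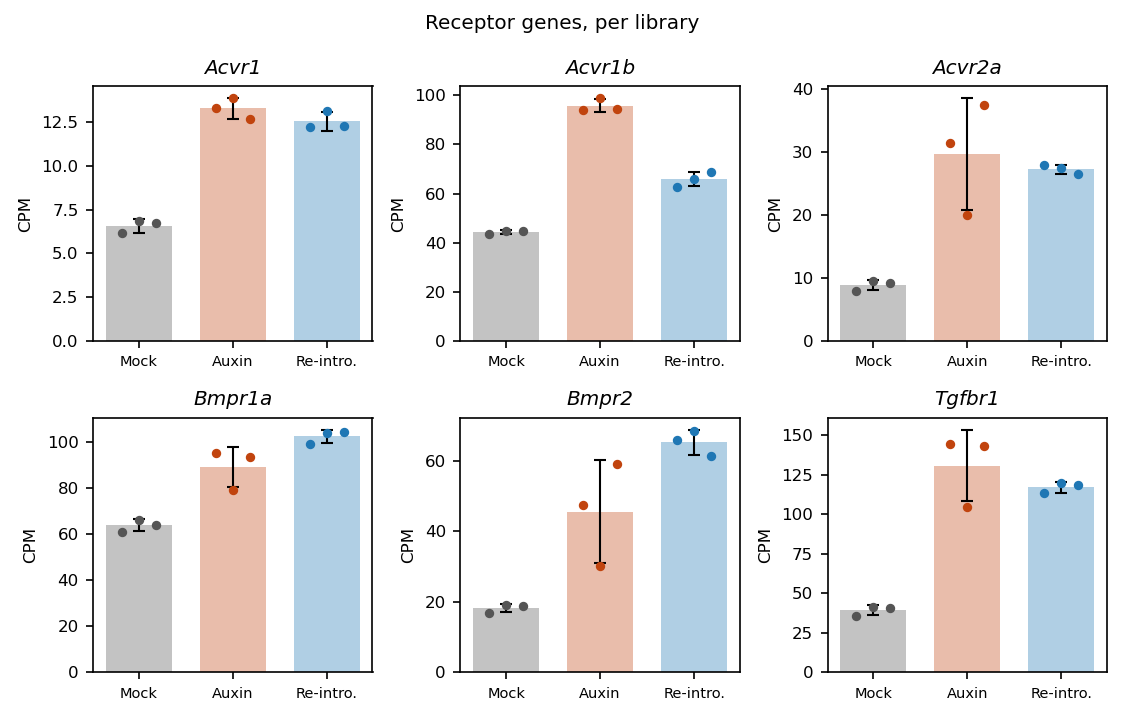
CPM (y axis, linear, from 0) of 6 receptor genes in the 3 groups (x axis); points are libraries, bars are means and error bars are SD (n = 3). Mock lies below Auxin for all 6, and Auxin replicate 2 (the middle Auxin point) is the lowest Auxin library for Acvr2a, Bmpr1a, Bmpr2 and Tgfbr1.

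**Figure D4:**
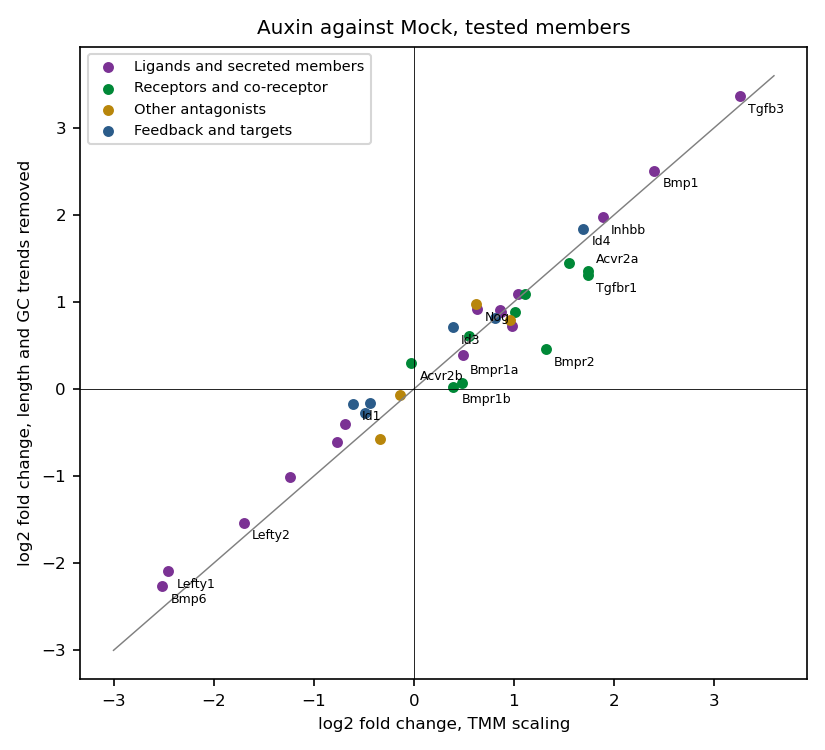
Log2 fold change of Auxin against Mock for each tested member with TMM scaling (x axis) and with trends of exon length and GC content removed (y axis), coloured by role; the grey line marks equal values. Bmpr2 moves from 1.32 to 0.46 and Bmpr1a from 0.48 to 0.08, while Lefty1, Lefty2, Inhbb and Bmp1 keep their direction and their calls.

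Of 8 antagonists, counting Lefty1 and Lefty2 among them, 6 were tested: in Auxin 1 rose and 3 fell (median −0.24), after washout none rose and 3 fell (median −0.43), and in Re-introduction against Mock 1 was higher and 4 were lower (median −0.79). The shares of all genes called lower in these comparisons were 34.8%, 25.5% and 33.4%. Fst encodes follistatin, which traps activins. It was at 7.13, 7.48 and 7.48 CPM in Mock, with 6.90, 6.05 and 7.13 in Auxin, then 2.75, 2.65 and 3.24 in Re-introduction. Re-introduction alone was low, with every library below all 6 others. The difference was −0.14 in Auxin against Mock (adjusted p = 0.205), −1.21 ± 0.10 after washout (2.31-fold lower, adjusted p = 2.74e-06) and −1.35 ± 0.10 in Re-introduction against Mock (2.54-fold lower, adjusted p = 6.45e-07).

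Chrd encodes chordin, which traps BMPs and is cut by Bmp1. It averaged 5.58 ± 0.14 CPM (SD, n = 3) in Mock, 10.8 ± 0.21 in Auxin and 6.98 ± 0.87 in Re-introduction. It rose by 0.96 in Auxin (adjusted p = 1.78e-06) and fell by 0.63 after washout (adjusted p = 1.37e-04). The residual 0.33 above Mock (adjusted p = 7.24e-03) was lost without Re-introduction replicate 1 (0.22) and with the length trend removed (0.13). The gene shares exon sequence with Thpo on the opposite strand. Bambi, a membrane pseudoreceptor that blocks signalling, averaged 11.1 ± 0.44, 8.82 ± 0.80 and 9.48 ± 0.50 CPM (SD, n = 3) in Mock, Auxin and Re-introduction. It fell by 0.33 in Auxin (adjusted p = 2.70e-03), which was −0.13 and not called with total counts and −0.57 with length and GC trends removed. Its −0.23 in Re-introduction against Mock (adjusted p = 0.0244) was lost with total counts (−0.10) and without Re-introduction replicate 1 (−0.23) or replicate 2 (−0.21), and was −0.35 with the length trend and −0.48 with length and GC trends removed. Nog (noggin, a BMP trap) was at 0.105 ± 0.025, 0.161 ± 0.052 and 0.146 ± 0.052 CPM (SD, n = 3) and passed no test.

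Of the 6 feedback and target genes 3 rose and 3 fell in Auxin (median −0.02), 1 rose and 2 fell after washout (−0.14), and 3 were higher and 2 lower in Re-introduction than in Mock (0.31). In the 3 comparisons 100%, 50.0% and 83.3% of them were called, against 73.2%, 50.9% and 68.1% of all genes. In Auxin Smad7, Id3 and Id4 rose and Smad6, Id1 and Id2 fell, and after washout Smad6 rose. Smad7, the inhibitory Smad induced by TGF-beta, was at 63.3, 57.0 and 54.9 CPM in the libraries of Mock, 103, 104 and 100.3 in those of Auxin and 96.5, 94.6 and 95.1 in those of Re-introduction. Mock was low, and the other two groups lay close together. It rose by 0.81 ± 0.058 in Auxin (adjusted p = 2.11e-07), with −0.10 after washout (adjusted p = 0.170) and 0.71 above Mock in Re-introduction (adjusted p = 1.26e-06). Smad6, the inhibitory Smad induced by BMPs, was at 2.29, 2.15 and 2.32 CPM in the Mock libraries, against 1.55, 2.02 and 1.24 under Auxin and 4.39, 3.94 and 4.68 at Re-introduction. Re-introduction was above all other libraries. It was 2.71-fold higher after washout than in Auxin (1.44 ± 0.16, adjusted p = 2.01e-05) and 0.95 above Mock (adjusted p = 1.89e-04). The fall of 0.49 in Auxin (adjusted p = 0.0166) was lost without Auxin replicate 3 (−0.34), with total counts (−0.28) and with length and GC trends removed (−0.28).

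The Id genes encode helix-loop-helix proteins that block basic helix-loop-helix factors and are direct BMP targets. Id1 was at 26.5, 23.8 and 24.9 CPM in Mock, with 15.7, 17.9 and 15.9 in Auxin, then 15.3, 16.6 and 17.7 in Re-introduction. Both later groups lay below Mock and overlapped each other. It fell by 0.61 ± 0.077 in Auxin (adjusted p = 2.42e-05), which was −0.40 with total counts, −0.23 with the length trend removed and −0.17 with length and GC trends removed, each still called. Id1 in Re-introduction against Mock was −0.60 (adjusted p = 3.93e-05), −0.27 with the length trend removed and −0.13, not called, with length and GC trends removed, and after washout it was 0.01 (adjusted p = 0.94997).

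Id2 was at 5.98, 5.72 and 5.25 CPM in the libraries of Mock, 4.57, 3.80 and 4.16 in those of Auxin and 3.35, 2.78 and 3.63 in those of Re-introduction. The groups did not overlap and were lowest in Re-introduction. The fall of 0.44 in Auxin (adjusted p = 4.38e-03) was lost with total counts (−0.22), with the length trend removed (−0.08) and with length and GC trends removed (−0.16). The fall of 0.35 after washout (adjusted p = 0.0270) was lost without Auxin replicate 1 (−0.29), Auxin replicate 3 (−0.35), Re-introduction replicate 1 (−0.38) or Re-introduction replicate 2 (−0.26). Re-introduction was 0.79 below Mock on the log2 scale (log2 fold change −0.79, adjusted p = 1.04e-04; −0.47 with the length trend removed).

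Id3, the most abundant Id gene per length, was at 97.9, 79.3 and 80.9 CPM in the Mock libraries, against 105, 127 and 106 under Auxin and 80.5, 81.6 and 81.5 at Re-introduction. Auxin was above all other libraries. It rose by 0.39 ± 0.091 in Auxin (adjusted p = 2.46e-03; 0.60 with total counts, 0.64 with the length trend removed and 0.71 with length and GC trends removed) and fell by 0.47 after washout (adjusted p = 1.30e-03). Id3 in Re-introduction against Mock was −0.08 (adjusted p = 0.434), but 0.31 and called (adjusted p = 2.81e-04) with length and GC trends removed. Id4, which shares exon sequence with the opposite-strand A330033J07Rik, was at 2.51, 2.44 and 2.14 CPM in Mock, with 8.03, 7.505 and 7.52 in Auxin, then 7.06, 6.77 and 6.59 in Re-introduction. All Mock libraries were low. It was 3.24-fold higher in Auxin (1.70 ± 0.087, adjusted p = 1.55e-08), with −0.17 after washout (adjusted p = 0.0994; −0.30 and called with length and GC trends removed) and 1.52 ± 0.088 above Mock in Re-introduction (adjusted p = 1.02e-07).

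**Figure D5:**
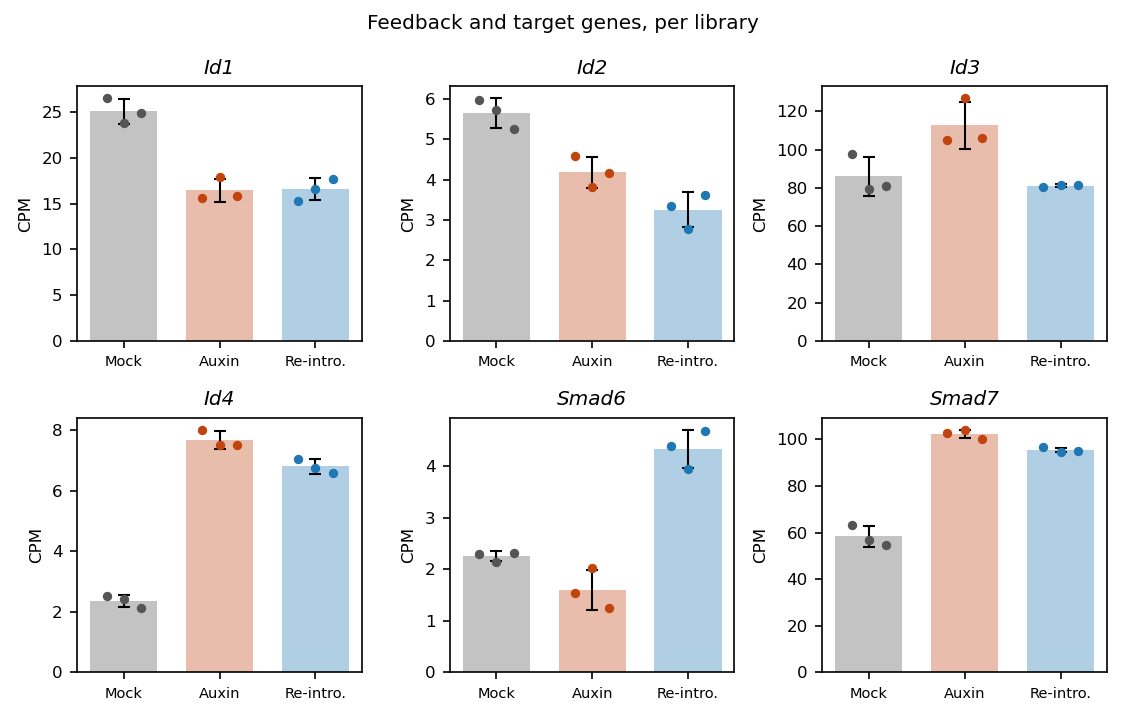
CPM (y axis, linear, from 0) of the 6 feedback and target genes in the 3 groups (x axis); points are libraries, bars are means and error bars are SD (n = 3). Id4 and Smad7 are higher in Auxin than in Mock and stay high, Id1 is lower, and Smad6 is highest in Re-introduction at 3.94–4.68 CPM.

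Compared per kilobase of exon, the members' mean levels in Mock were led by Tdgf1 at 211 CPM per kb, followed by Gdf3 at 64.2, Lefty2 at 50.9, Id3 at 48.0, Nodal and Bmp4 at 33.4 each, Lefty1 at 21.8 and Id1 at 21.6. In Auxin the order was Tdgf1 at 309 CPM per kb, Id3 at 62.9, Nodal at 51.9 and Gdf3 at 37.6, with Lefty2 at 15.7, Bmp4 at 14.2 and Lefty1 at 3.97. In Re-introduction Tdgf1 stood at 199 CPM per kb, Gdf3 at 54.8, Id3 at 45.3, Nodal at 41.4, Bmp4 at 25.5, Lefty2 at 15.1 and Lefty1 at 1.602. The most abundant receptors per length in Auxin were Acvr1b at 21.7 and Tgfbr1 at 20.02 CPM per kb, against 10.1 and 6.004 in Mock.

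The 10 members that were not tested are ligands and antagonists. Gdf1, Bmp5, Inhba and Cer1 had 0 counts in all 9 libraries, which allows a level of up to 0.00435 CPM over the libraries (3 counts, counting error only). Gdf1 shares exons with Cers1 on its strand and Upf1 on the other, and reads that overlap 2 genes were not counted. Summed over Mock, Auxin and Re-introduction, Gdf6 had 6, 5 and 4 counts, Gdf7 had 15, 36 and 7, Bmp2 had 22, 15 and 8, Inha had 40, 17 and 18, and Grem1, a BMP trap, had 39, 5 and 10. Gdf10 had 4 counts in all.

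A list of 65 other genes of the pathway, of which 47 were tested, gave calls in both directions: 24 rose and 12 fell in Auxin (median 0.21), 12 rose and 18 fell after washout (median −0.12), and 24 were higher and 15 lower in Re-introduction than in Mock (median 0.31). The share called was 76.6% in Auxin against Mock, 63.8% after washout and 83.0% in Re-introduction against Mock, where 73.2%, 50.9% and 68.1% of all genes were called. The 3 tested proteases that cut ligands or antagonists, Furin, Pcsk6 and Tll1, rose in Auxin (log2 fold changes 2.14, 2.00 and 3.34), as did 38.4% of all genes. All 3 fell after washout (median −0.54), as did 25.5% of all genes. In Re-introduction all 3 were still at least 2-fold above Mock (median 1.58), as were 15% of all genes. Of the 6 signal-carrying Smads, Smad1, Smad2, Smad4 and Smad5 rose in Auxin (Smad1 by 1.504), while Smad3 fell by 0.46 and Smad9 by 1.46. Of all genes 38.4% rose and 34.8% fell. After washout Smad3 rose by 1.23 and Smad1 and Smad4 fell. In Re-introduction against Mock 5 were higher, Smad3 included, and Smad9 was lower, where 34.7% and 33.4% of all genes were. The proteases and Smads had median exon lengths of 7758 and 5455 bases, and values with the length trend removed are not given for them. Of 10 tested targets, 2 rose and 5 fell in Auxin (median −0.81) and 5 rose and 1 fell after washout (median 0.80). These are 70% called in Auxin and 60% after washout, against 73.2% and 50.9% of all genes. The largest differences in this list in Auxin were those of Inhbe, Gdf15 and T, and in Re-introduction against Mock, among genes of at least 1 CPM in a group, T (−2.84), Mixl1 (−2.04) and Smad9 (−2.03). Eomes, Gsc, Mixl1 and T are also on the mesendoderm marker list.

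T (brachyury), a mesoderm gene induced by Nodal and Wnt signals, was at 9.47, 9.91 and 10.1 CPM in the libraries of Mock, 0.281, 0.367 and 0.117 in those of Auxin and 1.41, 1.18 and 1.48 in those of Re-introduction. The groups were separate, with Re-introduction between the others (−5.23 ± 0.21 in Auxin, adjusted p = 2.95e-09; 2.40 after washout, adjusted p = 1.22e-05). Gdf15, a secreted stress-response ligand, was at 1.48, 1.29 and 1.41 CPM in the Mock libraries, against 17.9, 18.1 and 17.5 under Auxin and 1.46, 1.604 and 1.29 at Re-introduction. It was high in Auxin alone (3.67 ± 0.093, adjusted p = 1.61e-10), and fell by 3.64 after washout (adjusted p = 6.49e-10). Inhbe, an activin subunit best known in liver, was at 0.0679, 0.133 and 0.140 CPM in Mock, with 14.6, 16.4 and 13.5 in Auxin, then 0.263, 0.0891 and 0.0490 in Re-introduction. It too was high in Auxin alone (7.06 ± 0.29, adjusted p = 2.92e-09; −6.71 after washout, adjusted p = 2.00e-08).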

How the data were processed

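RNA from 9 libraries (3 Mock, 3 Auxin, 3 Re-introduction) was prepared as poly(A) RNA and sequenced as 75-base pairs, per the labels' protocols. The deposited values are raw counts per gene from featureCounts, summed over exons of mm10 genes, per the file headers. The recorded command counts each mate, uses no strand and leaves out reads that overlap several genes. The submitters' processing notes name Trim Galore 0.6.10, FastQC 0.12.1, Bowtie2 2.5.3, SAMtools 1.20 and featureCounts 2.0.6, and no spliced aligner. Bowtie2 does not align across introns. If it made these alignments, junction reads would be under-counted, and reads with several equal placements could count for either copy.

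Counts were fitted with edgeR 4.0.16 (R 4.3.3): filterByExpr, TMM scaling, quasi-likelihood fit over all 9 libraries with group as the only term, and Benjamini-Hochberg adjustment over 20838 genes, called under 0.05. SE is the fold change divided by the root of F. CPM use TMM-scaled totals. The common biological coefficient of variation was 9.15%. The procedure was tested on simulated data. Symbols came from GENCODE M21 and matched 48058 of 48440 genes. Alternatives were other scalings, filters, DESeq2 1.42.0, 2-group fits, a replicate block, trends of length and GC removed, halved counts and leaving out each library. The trends were fitted per library by linear models with splines (5 df) on log2 CPM with a pseudocount of 2. They entered the same edgeR fit as offsets to the counts. Members with their values, and per comparison the 3 other-pathway genes with the largest called change among those of at least 1 CPM in a group, are named. The members and lists were chosen with earlier results of these data known.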

Additional observations from a re-analysis of the deposited data

How the results depend on the processing

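With at least a 2-fold change required as well, 11 members were higher and 4 lower in Auxin against Mock, 2 and 3 in Re-introduction against Auxin, and 11 and 4 in Re-introduction against Mock. In the other alternatives each member count stayed within 1.5 times the reported one: leaving out 1 library gave 21 to 22 higher and 10 to 12 lower, 7 to 9 and 8 to 14, and 19 to 21 and 8 to 11 in the 3 comparisons. Of the called members, 27 of 31, 14 of 21 and 23 of 29 kept their call and direction in all alternatives that tested them. An alternative whose filter left a member out did not count as a change. The filter of at least 1 CPM in 3 libraries left 31 members tested, and halved counts left 33. Direction reversed mainly for values near 0 that were not called. For Auxin against Mock, Acvr2b was 0.19 with total counts, 0.046 with at least 1 CPM in 3 libraries, 0.0088 with only the 2 groups fitted, 0.24 with the length trend removed, 0.30 (called) with length and GC trends removed, 0.013 with halved counts and −0.12 to 0.067 over the fits without 1 library. Fst was 0.072 with total counts and 0.041 with the length trend removed. For Re-introduction against Auxin with length and GC trends removed, Lefty2 was 0.021, Bmp1 0.015 and Smad7 0.010. Id1 was −0.072 with total counts, −0.040 with at least 1 CPM, −0.0020 with 2 groups, −0.034 with the length trend removed and −0.021 with halved counts. Without 1 library in the same comparison, Lefty2 ran from −0.25 to 0.069, Acvr2a from −0.35 to 0.083, Bmpr1b from −0.27 to 0.17, Id1 from −0.058 to 0.055 and Nog from −0.45 to 0.069. For Re-introduction against Mock, Tdgf1 was 0.041 with total counts and 0.055 with the length trend removed, Bmpr1b was −0.10 with length and GC trends removed, and Id3 was 0.049 with total counts, 0.16 with the length trend removed and 0.31 (called) with length and GC trends removed. Total counts moved the median of all genes from 0.05 to 0.26 in Auxin against Mock and from 0.03 to 0.16 in Re-introduction against Mock. Replicate numbers gave no sign of pairing (correlations of same-numbered deviations −0.17 to 0.055, of differently numbered ones −0.18 to 0.24). With 3 libraries per group this check cannot show that the samples were unpaired. With a replicate block 21 and 10, 8 and 11, and 20 and 9 members were called, and the calls of Bmpr1a (0.20) and Tgfbr2 (−0.51) in Re-introduction against Auxin were lost. After washout Inhbb, Smad7 and Id4 were also called lower with at least 1 CPM in 3 libraries (−0.17, −0.15 and −0.22) and with total counts (−0.20, −0.18 and −0.25), and Id4 with halved counts (−0.20). Members under about 1 CPM (Bmp6, Bmpr1b, Nog and Tgfb3) rest on few counts, and a difference there may not have been detectable.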
